A study of Mus musculus with 4 samples.

Results

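The interferon response genes are transcripts that cells make after sensing an interferon, and 39 of a list of 45 such genes were measured among 16492 probe sets in mouse quadriceps. Members were found by matching each listed symbol, through its Entrez gene number, to a probe set. Of the 39, 36 were named by the platform annotation and 3 (Mx1, Mx2 and Ifi44) through the Entrez number in the probe set identifier. No probe set was matched here for Ddx58, Ifit3, Isg15, Oas1a, Gbp4 or Nlrc5, which were not analysed. The mdm mutant group held 2 mice of strain B6C3Fe a/a-Ttnmdm/J with a mutation in titin (Ttn), the giant spring protein of the sarcomere, and the wild type group held 2 mice that carry the same strain name and are labelled titin wild type. Whole quadriceps was taken from each mouse and hybridised to 1 Affymetrix array, so each value is a mixture over muscle fibres and all other cells of the tissue. The labels give neither age nor sex, nor whether 1 or both copies carried the mutation.

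Interferons act in a short chain. Type I interferons bind the receptor formed by Ifnar1 and Ifnar2, and the kinases Jak1 and Tyk2 then activate a complex that includes Stat2 and Irf9, which binds interferon-stimulated response elements in promoters and turns on antiviral genes such as the Ifit, Oas and Mx families. Interferon-gamma binds Ifngr1 and Ifngr2, works through Jak1 and Jak2, and acts on promoters with gamma-activated sites, with the GTPases of the Gbp and Irg families among its best known targets in mouse. In skeletal muscle the response is best known from inflammatory muscle disease, where fibres, vessels and invading leukocytes can all take part.

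The values were log2 RMA values (a background-corrected, normalized probe set summary made by the authors), which ran from 5.42 to 14.98 with a median of 7.28 on every array. The number of arrays, 2 per group, limits the precision. Every level below is a log2 value, and every difference subtracts the wild type mean from the mdm mutant mean, ± the standard error from limma. A gene is called when limma's p-value, adjusted over all probe sets, is below 0.05. Ttn itself read 12.66 and 12.68 in mdm mutant mice, against 12.58 and 12.65 in wild type mice (0.05 ± 0.05), which does not check the genotype labels, since where the probes lie on Ttn is unknown here. All 10 skeletal muscle genes listed, such as Ckm and Acta1, read between 12.50 and 14.98, near the top of the table. One mouse stood apart in sex-linked genes. Xist, the transcript of the inactive X chromosome, read 9.98 in wild type 2 and 6.17 to 6.23 in the others, and the Y-linked Eif2s3y read 5.88 in wild type 2 and 9.28 to 9.65 in the others. These genes read as female in wild type 2 and as male in the other mice, so called results are also given without wild type 2. The 3' minus 5' difference of the array's Gapdh controls, a measure of RNA breakdown, was 0.10 and 0.05 in mdm mutant mice, against 0.02 and 0.08 in wild type mice, and that of beta-actin was 0.43 and 0.37 in mdm mutant mice, against 0.31 and 0.22 in wild type mice.

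The interferon response genes did not move as 1 block in mdm mutant muscle. Among the 39 measured members 8 passed the test (20.5%, against 12.8% of all probe sets), of which 3 went up and 5 down. The genes that rose were Ifitm3, Igtp and Ifitm2, and those that fell were Iigp1, Gbp2, Ifi44, Oas2 and Xaf1. The members that rose make 7.69% of the 39 and those that fell 12.8%, beside 6.46% and 6.36% of all probe sets. The share that rose was thus near the background. Of the 39, 27 lie among the 8246 brighter of the 16492 probe sets. With only those 8246 tested, 3 of the 27 rose and 4 fell, while 22.2% of the 8246 were called, 10.2% higher and 11.9% lower. The larger share that fell, set against all probe sets, therefore cannot be read as a trait of the list apart from its brightness. The median difference of the members was −0.07, beside −0.02 over all probe sets, but 0.04 when arrays were centred on the hybridization controls, which moves every difference up by 0.11. With that centring 5 members rose and 2 fell (background 17.2% and 3.66%), since Irgm1 and Ifitm1 were added and Ifi44, Oas2 and Xaf1 were not called. A further 4 members (Irf8 and Irgm1 higher, Bst2 and Gbp3 lower) had an unadjusted p under 0.05 without passing the adjusted threshold. That makes 12 of 39 in all, a share near the 30.7% of all probe sets at the same threshold. The groups did not overlap, with mdm mutant higher, in 8 members (20.5%, against 26.7% of all probe sets) and, with mdm mutant lower, in 15 (38.5%, against 34.2%). Without wild type 2, 1 member rose, Igtp (0.62), and 1 fell, Iigp1 (−0.59), on a background of 1.74% and 1.39%. In whole muscle a change in the number of cells of a type and a change in RNA per cell cannot be told apart.

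**Figure D1:**
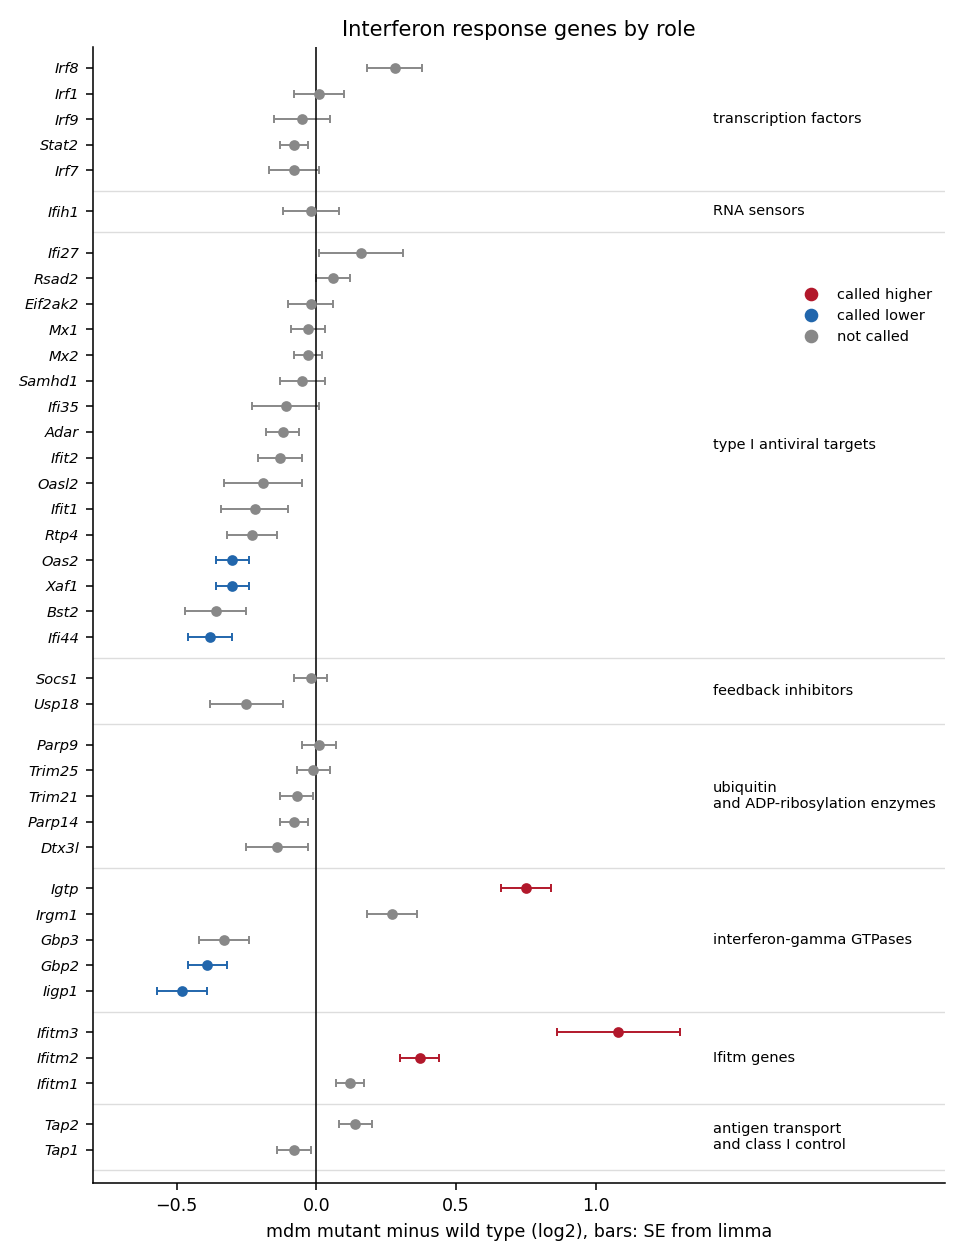
Difference between mdm mutant and wild type (log2, x axis) for each of the 39 measured interferon response genes, grouped by role; points are limma estimates, bars their standard errors, red and blue points genes called higher and lower. The Ifitm genes all lie right of 0, the interferon-gamma GTPases lie on both sides between −0.48 and 0.75, and 14 of the 16 type I antiviral targets lie left of 0 (9 of 16 with centring on the hybridization controls).

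Markers of other cells also differed between the groups. Over all probe sets 6.46% rose and 6.36% fell, and 44.4% had a positive and 55.6% a negative difference. The brighter 50% of probe sets holds 10 of 12 macrophage, 4 of 8 neutrophil and 9 of 10 endothelial markers. Of that 50%, 10.2% rose and 11.9% fell. Of 12 macrophage markers 5 rose and all 12 had a positive difference, and the log2 of their summed linear level was 12.81 and 13.05 in mdm mutant mice, against 12.30 and 12.19 in wild type mice. Of 8 measured neutrophil markers 4 rose, with summed levels of 10.85 and 11.36 in mdm mutant mice, against 9.97 in wild type 1 and 10 in wild type 2. Both lists were highest in mdm mutant 2. Of 10 endothelial markers 2 fell and all had a negative difference, with summed levels of 11.74 and 11.40 in mdm mutant mice, against 11.97 and 11.87 in wild type mice. By limma no lymphocyte marker of 12 and no dendritic cell marker of 7 was called, with summed levels of 10.24 to 10.27 and 9.43 to 9.53 over all mice, while 1 of 6 fibroblast markers (Lum) and 1 of 10 muscle markers (Des) rose. RMA gives no value of 0, so no marker could be called absent.

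The GTPases induced by interferon-gamma split in direction. These proteins load onto the vacuoles of intracellular pathogens and onto other membranes. Igtp (also called Irgm3), a regulatory member of the immunity-related GTPase family, read 9.15 and 9.23 in mdm mutant muscle, against 8.57 and 8.32 in wild type muscle. Both mutant mice were above both wild type mice, and the rise of 0.75 ± 0.09 amounts to 1.68-fold (log2 interval at 95%, 0.51 to 0.98, with adjusted p = 0.0124 by limma). Its relative Irgm1, another regulatory member, read 8.60 and 8.73 in mdm mutant mice, against 8.49 and 8.29 in wild type mice, a difference of 0.27 ± 0.09 that did not pass (adjusted p = 0.105 by limma).

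Iigp1, an effector member of the same family, went the other way. It read 8.11 and 8.21 in mdm mutant mice, against 8.75 and 8.52 in wild type mice, a fall of 0.48 on the log2 scale (SE 0.09, adjusted p = 0.0316 by limma). The guanylate-binding protein gene Gbp2 read 7.78 in both mdm mutant mice, against 8.25 and 8.10 in wild type mice. Its values in the mutants were nearly identical and below both controls (−0.39 ± 0.07, adjusted p = 0.0246 by limma). Gbp3, of the same family and also on chromosome 3, read 7.55 and 7.62 in mdm mutant mice, against 8.03 and 7.80 in wild type mice, and its difference of −0.33 ± 0.09 did not pass (adjusted p = 0.0723 by limma). Over the 5 measured GTPases 1 rose, 2 fell and 2 were not called, and the median (−0.33) lay below the mean (−0.04). The called shares were 20% higher and 40% lower, beside 6.46% and 6.36% of all probe sets. All 5 lie among the 8246 brighter probe sets. With only those 8246 tested, 10.2% were called higher and 11.9% lower. In all 5 the groups did not overlap, in 2 with mdm mutant higher and in 3 with it lower (26.7% and 34.2% of all probe sets), and these directions were the same with centring on the hybridization controls. Without wild type 1 that median was −0.21 and without wild type 2 it was −0.45.

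The call on Igtp held with mdm mutant 1, wild type 1 or wild type 2 left out (adjusted p = 0.0374, 0.0276 and 0.0426 by limma) and was lost without mdm mutant 2 (adjusted p = 0.0610). Iigp1 stayed called without wild type 2 (adjusted p = 0.0475) and lost its call without any 1 of the other mice (adjusted p = 0.0925 to 0.106). Leaving out any 1 mouse ended the call on Gbp2 (adjusted p = 0.0504 to 0.102).

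The 3 measured Ifitm genes, which encode small membrane proteins that block virus entry from endosomes, all had positive differences. Ifitm3 read 11.48 and 12.17 in mdm mutant mice, against 10.83 and 10.66 in wild type mice. Both mutants were above both controls, and mdm mutant 2 stood well above mdm mutant 1. The rise of 1.08 ± 0.22 amounts to 2.11-fold, and its 95% interval is wide (0.52 to 1.64 in log2, adjusted p = 0.0383 by limma). Ifitm2 read 9.85 and 10.01 in mdm mutant mice, against 9.57 and 9.56 in wild type mice, a rise of 0.37 ± 0.07 (adjusted p = 0.0303 by limma). Ifitm1 read 7.46 and 7.49 in mdm mutant mice, against 7.39 and 7.32 in wild type mice (0.12 ± 0.05, adjusted p = 0.199 by limma, not called). The median of the 3 was 0.37, and all of them lie on chromosome 7. Ifitm2 was called only without mdm mutant 1 among the mice left out in turn (adjusted p = 0.0355), and Ifitm3 without mdm mutant 1 or mdm mutant 2 (adjusted p = 0.0140 and 0.0418) but not without wild type 1 or wild type 2 (0.116 and 0.155). The levels of Ifitm2 and Ifitm3, like the macrophage and neutrophil markers given above, were higher in mdm mutant 2 than in mdm mutant 1, and the part of those cells was not tested. Ifitm genes, and likewise Gbp genes, are close relatives in sequence, and cross-binding of their probes was not tested.

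**Figure D2:**
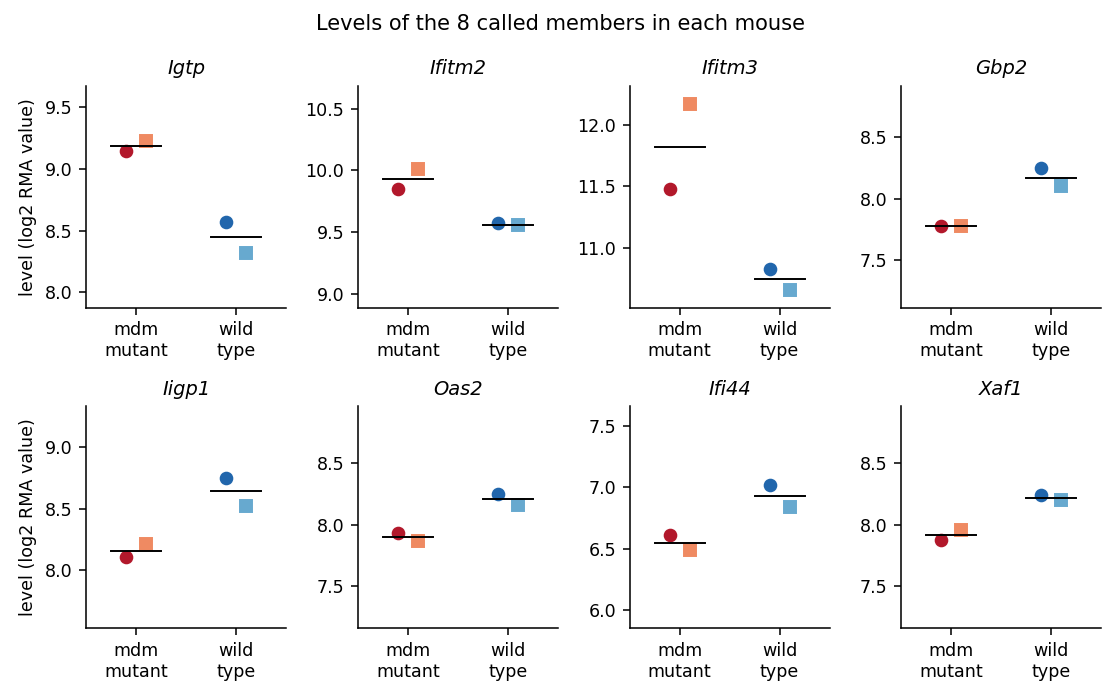
Level (log2 RMA value, y axis, every panel of the same height in log2 units) of the 8 called members in each mouse, mdm mutant left and wild type right; circles are mouse 1 and squares mouse 2 of each group, and lines are group means. The groups do not overlap in any panel, and the widest spread within a group is that of Ifitm3 in the mdm mutant mice, 11.48 and 12.17.

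Promoter stretches of 6 members are shown, because they hold the interferon motifs of GTPases and an Ifitm gene whose levels went in opposite directions, and of Ifit1, a typical type I target. RefSeq promoters (assembly GRCm38.p6, 250 bases before to 50 after the start) were matched for 29 of the 39 measured members. The printed stretches are the 150 bases before the start, 5′ to 3′ on the gene's strand, with capitals marking the core of the interferon-stimulated response element (GAAA, any 2 bases and GAAA again, or on the other strand TTTC, any 2 bases and TTTC) or, in Igtp, also the gamma-activated site (TTCNNNGAA, which reads the same on both strands). They lie at chr11:58199406-58199555 (+ strand) for Igtp, chr11:48871421-48871570 (- strand) for Irgm1, chr3:142620513-142620662 (+ strand) for Gbp2, chr3:142559894-142560043 (+ strand) for Gbp3, chr7:140955962-140956111 (- strand) for Ifitm2 and chr19:34640739-34640888 (+ strand) for Ifit1. Gbp3 has a pair of starts in the table, and the one with the element is shown.
Igtp: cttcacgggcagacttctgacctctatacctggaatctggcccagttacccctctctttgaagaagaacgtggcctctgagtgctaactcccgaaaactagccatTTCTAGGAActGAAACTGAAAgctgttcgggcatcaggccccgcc
Irgm1: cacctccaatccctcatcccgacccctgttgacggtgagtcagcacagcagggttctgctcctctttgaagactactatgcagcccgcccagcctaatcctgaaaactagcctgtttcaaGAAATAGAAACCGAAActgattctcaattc
Gbp2: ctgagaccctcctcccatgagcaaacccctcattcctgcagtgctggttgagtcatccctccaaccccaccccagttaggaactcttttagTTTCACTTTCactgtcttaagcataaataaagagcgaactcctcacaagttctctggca
Gbp3: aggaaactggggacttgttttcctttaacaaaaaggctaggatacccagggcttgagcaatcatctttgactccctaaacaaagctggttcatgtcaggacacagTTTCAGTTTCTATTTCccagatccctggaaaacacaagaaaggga
Ifitm2: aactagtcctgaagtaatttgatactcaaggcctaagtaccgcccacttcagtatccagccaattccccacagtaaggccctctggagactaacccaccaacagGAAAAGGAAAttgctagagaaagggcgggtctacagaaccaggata
Ifit1: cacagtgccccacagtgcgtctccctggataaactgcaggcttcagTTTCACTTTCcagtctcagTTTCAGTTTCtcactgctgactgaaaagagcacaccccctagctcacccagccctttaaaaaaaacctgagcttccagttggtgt

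The response element core was found in 14 of the 29 member promoters (48.3%), beside 1079 of 27025 genes with a promoter in the table (3.99%). The gamma-activated site was found in 10 of 29 (34.5%), beside 2582 of 27025 (9.55%). Igtp, which rose, has the gamma-activated site starting 45 bases and the response element 34 bases before its start, whereas Gbp2, which fell, has a response element 59 bases before its start and no match to the gamma-activated site in this window. In Gbp3 and Irgm1 a pair of overlapping response elements lies within 45 bases of the start, and Ifit1 has them 104 and 85 bases before it. Ifitm2 has a response element 46 bases before its start, while those of Ifitm3 begin at positions 3 and 20 after the start. Of the called members with a promoter, the response element was found in 3 of 3 that rose and 1 of 3 that fell, and in 10 of 23 that did not pass. Neither motif was found in the windows of Ifi44 and Xaf1, and no promoter was matched for Oas2 and Iigp1, which also fell. Ifitm2, which rose, has no match to the gamma-activated site either. Whether these motifs bear on the direction of a difference was not tested.

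**Figure D3:**
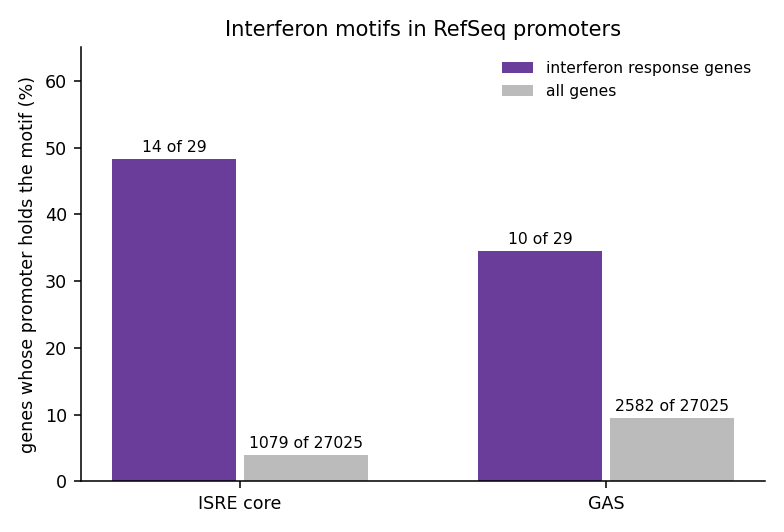
Percentage of genes (y axis) whose RefSeq promoter holds the interferon-stimulated response element core (ISRE core, left) or the gamma-activated site (GAS, right), for the measured interferon response genes (purple) and all genes with a promoter in the table (grey); labels give the counts. The shares are 48.3% against 3.99% for the response element and 34.5% against 9.55% for the gamma-activated site.

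Type I antiviral targets lay mostly below wild type levels, by small amounts. Of 16 measured, 0 rose, 3 fell (18.8%, beside 6.36% of all probe sets) and 13 were not called by limma. The brighter 50% of probe sets holds 9 of the 16, and 11.9% of that 50% fell. A negative difference was found in 14 (87.5%, beside 55.6% of all probe sets), or in 9 with centring on the hybridization controls (24.2% of all probe sets). Their median was −0.13, but −0.04 without mdm mutant 1 and −0.01 with that centring, and the range ran from −0.38 to 0.16. In 8 (50%) the groups did not overlap with mdm mutant lower, and in 1 (6.25%) with it higher, beside 34.2% and 26.7% of all probe sets. Ifi44, a cytoplasmic protein induced by type I interferon, read 6.61 and 6.49 in mdm mutant mice, against 7.02 and 6.84 in wild type mice. It fell by 0.38 on the log2 scale (SE 0.08, adjusted p = 0.0427 by limma), but was dim, below the array median of 7.28 in every mouse. Oas2, which makes the oligoadenylates that activate RNase L, read 7.93 and 7.87 in mdm mutant mice, against 8.25 and 8.16 in wild type mice. Xaf1, a pro-apoptotic partner of XIAP, read 7.88 and 7.96 in mdm mutant mice, against 8.24 and 8.20 in wild type mice. Both fell by 0.30 on the log2 scale (SE 0.06, adjusted p = 0.0347 for Oas2 and 0.0298 for Xaf1 by limma), and in all 3 genes both mutants were below both controls. With any 1 mouse left out none of the 3 was called (adjusted p = 0.0693 to 0.168 by limma), with differences of −0.47 to −0.26, and none was called with centring on the hybridization controls. The summed level of endothelial markers was also lower in the mdm mutant mice, with its lowest value in mdm mutant 2, and their part was not tested.

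Several further antiviral genes had differences of similar size without passing. Bst2 (tetherin), which holds budding virus at the cell surface, read 8.19 and 8.33 in mdm mutant mice, against 8.76 and 8.48 in wild type mice (−0.36 ± 0.11, adjusted p = 0.0857 by limma). Rtp4, a chaperone-like interferon target, differed by −0.23 ± 0.09. The Ifit proteins bind foreign RNA ends, and Ifit1 read 6.91 and 7.27 in mdm mutant mice, against 7.30 and 7.32 in wild type mice (−0.22 ± 0.12, promoter above). Its mean in the mutants was lowered mostly by mdm mutant 1. Oasl2 had the same shape, with 6.70 and 7.13 in mdm mutant mice, against 7.12 and 7.09 in wild type mice. At the other end Ifi27, a nuclear envelope protein, differed by 0.16 ± 0.15 and Rsad2 (viperin), which makes a chain-terminating nucleotide, by 0.06 ± 0.06. The remaining 7 lay between −0.13 and −0.02. They were Ifit2, a partner of Ifit1, Ifi35, the dynamin-like GTPases Mx1 and Mx2, the kinase Eif2ak2 (PKR), which halts translation on double-stranded RNA, Samhd1, which breaks down nucleotides needed for virus replication, and the RNA editing enzyme Adar.

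The factors that drive the response and the genes that restrain it had no called member. Among 5 transcription factors Irf8, a factor of myeloid cells, read 7.13 and 7.42 in mdm mutant mice, against 7.01 and 6.98 in wild type mice (0.28 ± 0.10, adjusted p = 0.137 by limma), and was called only without mdm mutant 1 (0.43, adjusted p = 0.0393). Irf1, the factor most directly induced by interferon-gamma, differed by 0.01 ± 0.09 with an interval of −0.22 to 0.23. Irf7, the amplifier of type I interferon genes, differed by −0.08 ± 0.09, and Stat2 and Irf9, partners in the type I complex, by −0.08 ± 0.05 and −0.05 ± 0.10. The sensor Ifih1 (MDA5), which detects double-stranded RNA, differed by −0.02 ± 0.10. Usp18, which removes Isg15 from proteins and blocks the type I receptor, read 6.81 and 7.10 in mdm mutant mice, against 7.34 and 7.08 in wild type mice (−0.25 ± 0.13), and Socs1, an inhibitor of Jak kinases, differed by −0.02 ± 0.06.

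Ubiquitin and ADP-ribosylation enzymes of the response had differences near 0. Trim21 and Trim25 are ubiquitin ligases, Dtx3l works as a ligase in complex with Parp9, and Parp14 attaches ADP-ribose to proteins. The 5 genes differed by −0.14 to 0.01 and limma called none, nor had any an unadjusted p under 0.05. The peptide transporter subunits Tap1 and Tap2, which supply peptides to class I molecules, differed by −0.08 ± 0.06 and 0.14 ± 0.06, neither of them called.

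Mice of the same group differed in these genes in a shared direction. In wild type 2 the level was below that of wild type 1 in 35 of 39 members (89.7%, beside 49.5% of all probe sets), with a median gap of 0.09. In mdm mutant 1 it was below that of mdm mutant 2 in 30 of 39 (76.9%, beside 49.3%), with a median gap of 0.08. These gaps are about as large as the median difference between the groups over all members (−0.07). For the GTPases the median gap was 0.08 between the mdm mutant mice, against 0.23 between the wild type mice, beside a median difference of −0.33. For the Ifitm genes the gaps were 0.16 and 0.07 in the same order, beside a median difference of 0.37. Among type I targets the median deviation from a gene's mean over all mice was −0.12 and −0.02 in mdm mutant mice, against 0.11 and 0.04 in wild type mice. Without mdm mutant 1 their median difference was −0.04, and without mdm mutant 2 it was −0.19. Wild type 2 is also the mouse with the differing sex-linked genes, so sex and individual cannot be told apart in the gap between the wild type mice.

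**Figure D4:**
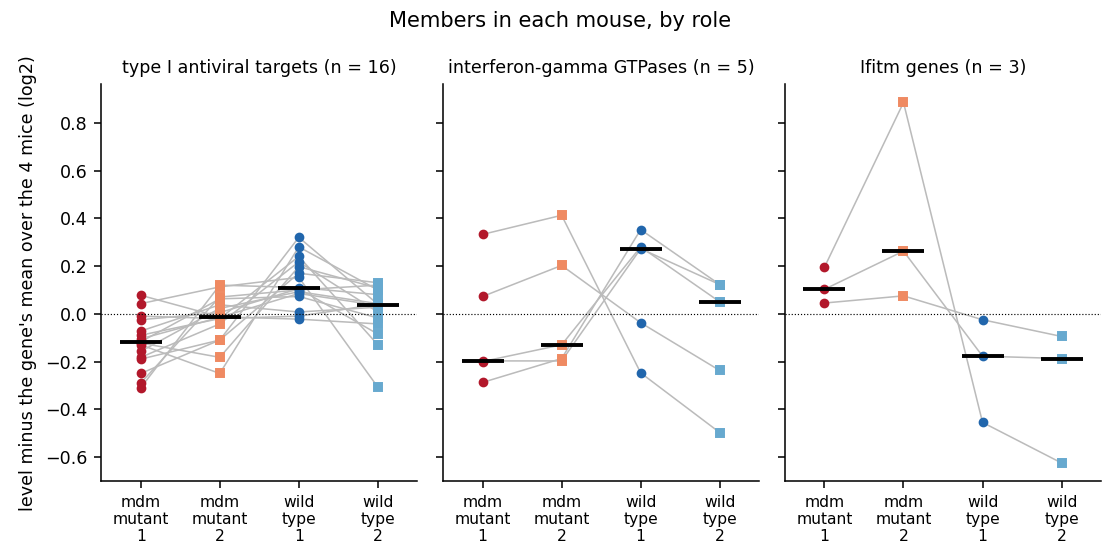
Level of each gene minus its mean over the 4 mice (log2, y axis) in each mouse, mdm mutant left and wild type right, for type I antiviral targets, interferon-gamma GTPases and Ifitm genes; grey lines join the values of 1 gene and black bars are medians. Type I targets are lowest in mdm mutant 1 (median −0.12) and highest in wild type 1 (0.11), the GTPases cross between groups, and the Ifitm genes are higher in both mdm mutant mice.

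Other genes of the pathway, from lists that do not include the members, were read in the same fit. Of 104 listed, 80 were measured. Among them 4 rose (5.0%) and 3 fell (3.75%), both below the share of all probe sets. No interferon gene was called among 7 measured, all of them dim at 6.01 to 6.85, with the smallest p-values for Ifna9 (−0.11 ± 0.05) and Ifnab (−0.14 ± 0.07). Ifnb1 differed by 0.02 ± 0.07 and Ifng by −0.03 ± 0.08, named for their place in the pathway.

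Of 10 receptor and kinase genes 2 fell (20%, beside 6.36% of all probe sets), and both serve interferon-gamma signalling. The brighter 50% of probe sets holds 9 of the 10, and 11.9% of that 50% fell. Ifngr1 and Jak1, which serve the same signalling, differed by 0.16 ± 0.10 and −0.22 ± 0.07, and neither was called. The kinase Jak2 read 8.03 and 8.10 in mdm mutant mice, against 8.72 and 8.58 in wild type mice, and fell by 0.59 on the log2 scale (SE 0.07, adjusted p = 0.0111 by limma). It was called with any 1 mouse left out except wild type 1 (adjusted p = 0.0503). The receptor subunit Ifngr2 read 9.31 and 9.46 in mdm mutant mice, against 9.70 and 9.79 in wild type mice (−0.36 ± 0.07, adjusted p = 0.0351 by limma), and the call was lost with any 1 mouse left out (adjusted p = 0.0617 to 0.146) and with centring on the hybridization controls (−0.25, adjusted p = 0.0706). Jak2 also serves growth hormone and several cytokine receptors. Ptpn2, a phosphatase that acts on Jak1, rose by 0.28 ± 0.05 as the only called gene of 7 signal inhibitors (adjusted p = 0.0322 by limma). That makes 14.3% of this list, beside 6.46% of all probe sets and 10.2% of the brighter 50%, which holds 6 of the 7. Among 18 genes of nucleic acid sensing none was called, with Myd88 at 0.23 ± 0.06 and Mavs at −0.34 ± 0.08 having the smallest p-values (adjusted p = 0.0597 and 0.0602 by limma).

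Of 33 further targets measured, 3 rose (9.09%) and 0 fell, beside 6.46% and 6.36% of all probe sets. Their median difference was −0.02, and 19 had a negative difference (57.6%, beside 55.6% of all probe sets). Among these targets the chemokine Cxcl10 stood far apart. It read 9.43 and 10.39 in mdm mutant mice, against 6.75 and 6.68 in wild type mice, a rise of 3.20 ± 0.30 or 9.19-fold (adjusted p = 0.0075 by limma), called with any 1 mouse left out. Cxcl10 is known to be induced by interferon-gamma and also by NF-kB, and its relatives Cxcl9 and Cxcl11, shown for comparison, differed by −0.17 ± 0.15 and −0.03 ± 0.06. The exonuclease Isg20 rose by 0.33 ± 0.05 (adjusted p = 0.0214 by limma). Ifitm6, a further Ifitm gene, read 7.13 and 7.43 in mdm mutant mice, against 6.68 and 6.72 in wild type mice (0.58 ± 0.11, adjusted p = 0.0295 by limma). Its relatives Ifitm5 and Ifitm7, named after their values were seen, differed by 0.01 ± 0.06 and −0.22 ± 0.05, so not all measured Ifitm genes had positive differences. Both were dim, at 6.88 to 6.99 and 6.71 to 6.98, below the array median of 7.28. Ifitm6 was also below that median, except in mdm mutant 2. Whether Ifitm5, Ifitm6 and Ifitm7 are expressed in this tissue was not tested. For Ifitm7 both mutants were below both controls, but it did not pass (adjusted p = 0.0561 by limma). Leaving out any 1 mouse ended the calls on Isg20 and Ptpn2, and that on Ifitm6 was lost unless the mouse left out was mdm mutant 1. Gbp7, in the list of other GTPases, read 8.16 and 8.02 in mdm mutant mice, against 8.93 and 8.55 in wild type mice. It fell by 0.65 on the log2 scale (SE 0.13, adjusted p = 0.0367 by limma), as the only called gene of 5 measured (20%, beside 6.36% of all probe sets). That call held only without wild type 2 (adjusted p = 0.0338) when 1 mouse was left out, and was lost without wild type 1 (0.0741) and without either mdm mutant mouse (0.0821 and 0.149). Without wild type 2 only Cxcl10 rose, and Jak2 and Gbp7 fell, among the 80 genes.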

How the data were processed

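Quadriceps RNA from each of 4 mice was put on its own Affymetrix array, per the labels. The log2 values are as the authors deposited them, and the submitters' processing notes name RMA as the tool, without a version. No source used here gives the array design or how probe sets were defined. Once sorted, the arrays matched at all but 26 of 16553 ranks (tolerance 1e-06), so a shift of most genes in 1 direction would not be visible.

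Array controls (61 probe sets) were not tested. Among the other 16492, 15270 had 1 gene in the platform annotation and none had several. In 99.87% of these the probe set identifier was the Entrez number, so 988 further probe sets were named by it, and 234 stay unnamed. Symbols came from a RefSeq gene table (GRCm38.p6). A gene with several probe sets was represented by the one with the highest mean. Groups follow the genotype labels. The titles write Ttn+ for mutant and Ttn- for wild type mice, where, by each sample's source name and description, plus means that the mutation is present. Replicate numbers only name mice in deposition order. Differences were fitted over all probe sets by lmFit and eBayes without trend or robust options (limma 3.58.1, R 4.3.3), which gave 3.35 prior and 5.35 total degrees of freedom, with Benjamini-Hochberg adjustment. With 2 mice per group, p-values rest on the spread between these mice and, through the prior, on the variances of all probe sets. The fit was tested on simulated data. Figures were drawn with matplotlib 3.10.9.

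The members and lists were chosen with earlier results of these data known. All members are named. A member is given in every mouse if it was called or differed by at least 0.4, with others added where their role or shape needed it. Of the other pathway lists, called genes are named (at most 6 a list), or else the 2 with the smallest p. Alternatives were the brighter 50% of probe sets, centring on medians or on 18 hybridization controls, repeated quantile normalization, other moderation of variances, the mean of a gene's probe sets, each mouse left out in turn and thresholds of 0.10 and 0.01. Naming members by the annotation alone, and all alternatives for the other pathway genes, were added after seeing the data.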

Additional observations from a re-analysis of the deposited data

How the results depend on the processing

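No paired analysis was possible because the mice of the 2 groups share no number in the labels. The member counts stayed within 1.5 times of those reported, and the medians within the spread between mice, with the brighter 50% of probe sets, median centring, repeated quantile normalization, the mean of a gene's probe sets and annotation names alone. Trend and robust moderation and an adjusted p under 0.10 kept the counts within 1.5 times too. With variances not moderated (2 residual degrees of freedom) 0 members were called higher and 0 lower, though 5 had an unadjusted p under 0.05 (19.9% of all probe sets), and 1 of all 16492 probe sets was called. Limma at an adjusted p under 0.01 also called 0 and 0 members, beside 12 at an unadjusted p under 0.05, and called 1.11% and 0.734% of all probe sets. Leaving out 1 mouse gave 1 to 4 members higher and 0 to 1 lower, while the shares of all probe sets fell to 1.74% to 3.86% and 1.13% to 3.3%. The medians then ranged from −0.115 to −0.017 over all members, −0.192 to −0.040 for type I targets, −0.445 to −0.212 for the GTPases and 0.290 to 0.448 for the Ifitm genes. Of the other pathway genes, 4 higher and 3 lower as reported, leaving out 1 mouse gave 1 to 2 higher and 0 to 2 lower, trend and robust moderation 6 and 5, and variances not moderated 0 and 0.

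Centring on the hybridization controls, which read 11.01 and 10.99 in mdm mutant mice, against 11.10 and 11.12 in wild type mice, raised all differences by 0.11. It gave 5 members higher (with Irgm1 and Ifitm1 added) and 2 lower (Gbp2 and Iigp1), on a background of 17.2% and 3.66%, and 14 other pathway genes higher in place of 4 and 2 lower in place of 3 (Ifngr2 was lost). The medians were 0.042 over all members, −0.013 for type I targets and 0.481 for the Ifitm genes, so the lower median of the type I targets depends on this choice. Under it 14 uncalled members changed sign: Irf7 0.029, Irf9 0.060, Stat2 0.030, Ifih1 0.087, Mx1 0.077, Mx2 0.083, Ifi35 0.006, Eif2ak2 0.089, Samhd1 0.063, Socs1 0.092, Trim21 0.042, Trim25 0.106, Parp14 0.031, Tap1 0.027.

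No called member changed sign under any alternative run. Uncalled members that changed sign with a mouse left out ranged as follows: Irf1 −0.094 to 0.105, Irf7 −0.199 to 0.033, Irf9 −0.196 to 0.091, Ifih1 −0.174 to 0.125, Oasl2 −0.408 to 0.028, Mx1 −0.094 to 0.025, Ifi35 −0.289 to 0.077, Ifi27 −0.074 to 0.384, Eif2ak2 −0.122 to 0.076, Samhd1 −0.138 to 0.041, Socs1 −0.053 to 0.013, Trim25 −0.056 to 0.045, Parp9 −0.042 to 0.069, Dtx3l −0.310 to 0.023. Array number and the lack of detection calls limit the precision.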
